A study of Mus musculus with 6 samples.

Results

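Mouse chromosome 19 carried 906 of the 21835 intervals in a list of accessible chromatin from fibroblasts lacking Ezh2, and these intervals belonged to 759 of 19215 called regions. The members are every interval of that list placed on chromosome 19. A called region is a set of intervals that repeat the same total signal, maximum signal and region of maximum, so signal was summarised once per called region. ATAC-seq, in which a transposase cuts and tags open DNA, was done on 6 samples of line A, fibroblasts from mouse embryos that c-myc had immortalised. The design had 3 groups of 2 samples: wild-type cells, Ezh2 -/- cells, and Ezh2 -/- cells carrying Ezh2 from the retroviral vector pMSCV. All are derivatives of the same line, all carry the immortalising c-myc, and transposition was done on whole cells, per the labels' protocols. The values below come from the Ezh2 -/- list alone, and no genotypes are compared, since the other groups were not analysed here. The list holds no value per replicate and no read counts, so the depth is unknown, no error between replicates can be given and no test over samples was possible.

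Ezh2 is the enzyme of PRC2, a Polycomb complex that methylates a lysine on the tail of histone H3 and keeps developmental genes silent. Sites open to the transposase are mostly promoters and enhancers, and promoters of broadly used genes often lie in CpG islands, stretches rich in CG dinucleotides. Chromosome 19 is the shortest mouse autosome and is rich in genes. It also carries large tandem families whose members are used in few cell types: olfactory receptors of the nasal epithelium, Ms4a membrane proteins of blood cells, Cyp2c cytochromes of the liver and Slc22a transporters of the kidney and liver.

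The contrast that runs through the results can be read from promoter sequences, given here from the RefSeq promoter table on GRCm38.p6, the assembly behind mm10. Each is 300 bases, 250 before and 50 after a listed start site, written 5′ to 3′ on the gene's own strand with every CG dinucleotide in capitals. The first 4 lie at called regions among the 6 highest by maximum signal on the chromosome. The other 2 of the 6, at Esrra and at a distal site, are not shown. For genes with several listed starts the one nearest the maximum is shown.
Osbp promoter, chr19:11965594-11965893, plus strand: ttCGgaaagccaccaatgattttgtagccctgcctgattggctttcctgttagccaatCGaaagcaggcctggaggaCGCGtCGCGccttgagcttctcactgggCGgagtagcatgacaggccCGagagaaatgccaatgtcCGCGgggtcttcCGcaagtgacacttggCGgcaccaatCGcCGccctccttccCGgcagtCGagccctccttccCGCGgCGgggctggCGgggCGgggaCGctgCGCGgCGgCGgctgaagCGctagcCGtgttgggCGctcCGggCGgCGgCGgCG
Tle4 promoter, chr19:14598134-14598433, minus strand: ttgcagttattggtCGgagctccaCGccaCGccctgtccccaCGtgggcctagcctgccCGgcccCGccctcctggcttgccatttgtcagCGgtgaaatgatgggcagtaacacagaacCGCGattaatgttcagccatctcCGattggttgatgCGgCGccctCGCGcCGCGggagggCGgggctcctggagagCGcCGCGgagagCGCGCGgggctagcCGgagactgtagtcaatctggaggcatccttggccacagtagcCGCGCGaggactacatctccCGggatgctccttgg
Add3 promoter, chr19:53142506-53142805, plus strand: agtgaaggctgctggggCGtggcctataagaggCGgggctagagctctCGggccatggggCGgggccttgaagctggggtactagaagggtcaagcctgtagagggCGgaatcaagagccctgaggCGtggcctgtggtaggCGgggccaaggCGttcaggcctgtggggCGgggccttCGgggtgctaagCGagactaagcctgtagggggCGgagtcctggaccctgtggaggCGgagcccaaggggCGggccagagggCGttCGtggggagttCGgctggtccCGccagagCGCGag
Smndc1 promoter, chr19:53390585-53390884, minus strand: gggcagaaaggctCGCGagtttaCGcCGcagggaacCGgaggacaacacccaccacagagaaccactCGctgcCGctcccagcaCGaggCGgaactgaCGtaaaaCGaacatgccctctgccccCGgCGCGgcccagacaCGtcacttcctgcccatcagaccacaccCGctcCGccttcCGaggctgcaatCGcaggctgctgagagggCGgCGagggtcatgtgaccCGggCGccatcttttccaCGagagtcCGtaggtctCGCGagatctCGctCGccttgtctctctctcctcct
The Osbp promoter held 34 CG dinucleotides, that of Tle4 28, that of Add3 20 and that of Smndc1 29. The 4 that follow belong to genes of bins that held no interval at all.
Olfr1453 promoter, chr19:13028278-13028577, minus strand: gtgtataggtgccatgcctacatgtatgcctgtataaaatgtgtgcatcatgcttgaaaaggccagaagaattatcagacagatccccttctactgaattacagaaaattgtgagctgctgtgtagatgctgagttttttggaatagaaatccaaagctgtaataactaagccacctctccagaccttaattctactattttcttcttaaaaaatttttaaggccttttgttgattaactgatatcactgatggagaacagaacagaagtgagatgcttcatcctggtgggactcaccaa
Cyp2c29 promoter, chr19:39286835-39287134, plus strand: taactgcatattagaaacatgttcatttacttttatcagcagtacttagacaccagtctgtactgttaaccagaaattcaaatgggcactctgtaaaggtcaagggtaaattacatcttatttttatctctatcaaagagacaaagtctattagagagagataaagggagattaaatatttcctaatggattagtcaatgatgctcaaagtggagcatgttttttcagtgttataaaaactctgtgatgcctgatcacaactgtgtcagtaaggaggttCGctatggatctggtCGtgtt
Sorcs3 promoter, chr19:48205775-48206074, plus strand: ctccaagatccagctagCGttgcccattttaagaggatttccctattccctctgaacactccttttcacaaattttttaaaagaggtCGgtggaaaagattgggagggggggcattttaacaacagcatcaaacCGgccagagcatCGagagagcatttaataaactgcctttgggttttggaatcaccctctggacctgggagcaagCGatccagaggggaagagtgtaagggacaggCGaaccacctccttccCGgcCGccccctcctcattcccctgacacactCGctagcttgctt
Sorcs1 promoter, chr19:50678597-50678896, minus strand: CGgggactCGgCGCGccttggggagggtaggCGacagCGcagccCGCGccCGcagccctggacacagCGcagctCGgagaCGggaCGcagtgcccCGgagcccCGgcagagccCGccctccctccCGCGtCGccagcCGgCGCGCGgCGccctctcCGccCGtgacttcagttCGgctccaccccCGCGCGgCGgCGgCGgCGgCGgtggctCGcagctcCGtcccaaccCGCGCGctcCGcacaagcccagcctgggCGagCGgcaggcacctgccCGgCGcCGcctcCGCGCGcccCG
The Olfr1453 promoter held 0 CG dinucleotides, that of Cyp2c29 2 and that of Sorcs3 9. The Sorcs1 promoter is the exception in this set, with 50 CG dinucleotides, more than any of the 4 promoters with a strong interval.

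Chromosome 19 was among the densest chromosomes of the list. It held 15.6 intervals per Mb over a span of 58.2 Mb, the third highest density of 20 chromosomes after chromosome 11 with 20.01 and chromosome 5 with 16.6. Intervals covered 4.64% of the span, and its protein-coding genes had a density of 12.1 per Mb, rank 3 of the 20 chromosomes. Set against genes, the chromosome had 1.29 intervals per protein-coding gene, rank 6 of the 20. The order of density therefore differed from the order of intervals per gene, where chromosome 5 led with 1.98.

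More of its genes had an interval at a gene end than on most chromosomes. A gene-end interval is one that overlaps a window of 1000 bp to either side of an outer end of a protein-coding gene. Of 705 protein-coding genes on chromosome 19, 428 (60.7%, exact 95% binomial interval 57.0 to 64.3, counting over genes only) had one, beside a background of 47.4% over all chromosomes and 46.97% on the other chromosomes. Only chromosome 5 had a higher share, 63.2%, and among chromosomes with an interval chromosome X had the lowest, 11.9%. Chromosome Y held no interval, and its genes count in the shares over all chromosomes and over the other chromosomes. Chromosomes 11 (60.5%), 10 (58.9%) and 17 (57.0%) were close to chromosome 19. With only the upper quartile of called regions by total signal, the shares were 37.2% on chromosome 19 and 19.01% elsewhere. The 5 tandem families of the chromosome (olfactory receptors, Ms4a, Cyp2c, Slc22a and the lipase cluster) had a gene-end interval at 6 of 118 members. The other 587 genes had one at 422, or 71.9%, beside 50.6% on other chromosomes without receptor and other tandem families.

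**Figure D1:**
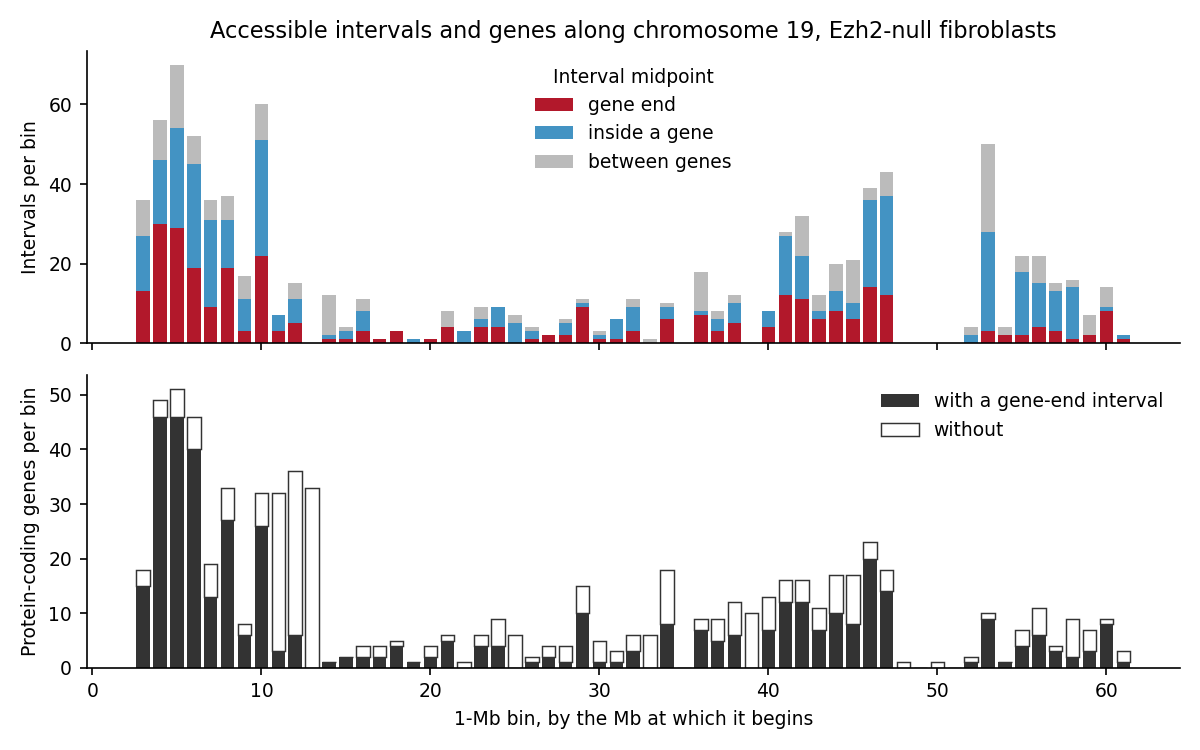
Intervals (upper) and protein-coding genes (lower) in each 1-Mb bin of chromosome 19, by the Mb at which the bin begins. Colours divide intervals by midpoint and genes by the presence of a gene-end interval; the bin at 5 Mb is the densest with 70 intervals, while the bin at 13 Mb holds 33 genes and no interval.

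Intervals were unevenly spread along the chromosome. Intervals and genes were placed by midpoint, and over 59 bins of 1 Mb the median was 9 intervals (quartiles 3 and 20.5), and the mean 15.4 ± 17.1 (SD over bins). On other chromosomes the median bin held 4 (quartiles 0 and 10). The 5 densest bins held 288 intervals (31.8%) and the 10 densest 479 (52.9%). At the other extreme, 7 bins (11.9%) held none, beside 678 of 2564 bins (26.4%) elsewhere. Interval number followed gene number over the 59 bins, with Spearman's rho 0.73 and Pearson's r 0.75, beside 0.70 and 0.61 over bins of the other chromosomes. These coefficients describe positions in 1 list, and neighbouring bins share it.

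Divided after the bin values had been seen, the chromosome fell into 6 stretches. From 3 to 11 Mb lay 364 intervals (40.2%) and 256 genes, 219 of them (85.5%) with a gene-end interval. From 11 to 14 Mb the gene density was much the same, 33.7 per Mb against 32.0, but only 22 intervals were found and 9 of 101 genes (8.91%) had one at an end. The long middle stretch from 14 to 41 Mb was thin in both, with 6.26 intervals and 6.11 genes per Mb. Between 41 and 48 Mb density returned to 27.9 intervals per Mb, and 83 of 118 genes (70.3%) had a gene-end interval. No interval lay between 48 and 52 Mb. The last stretch, 52 to 62 Mb, held 156 intervals for 63 genes, and 16.7% of its intervals lay at gene ends, beside 39.6% in the first stretch.

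**Figure D2:**
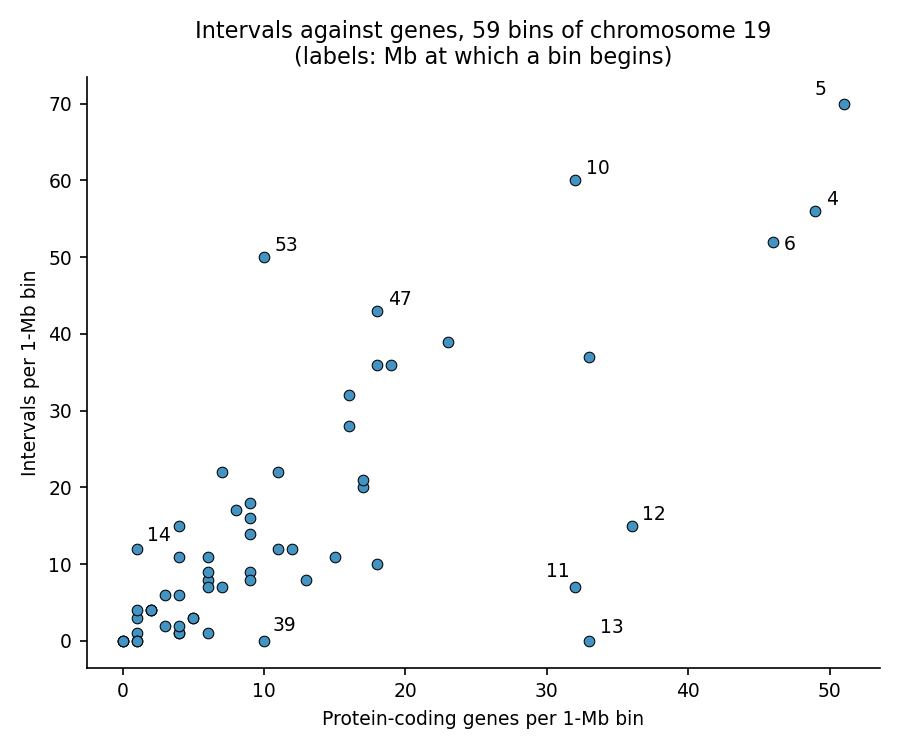
Intervals against protein-coding genes in the 59 bins of 1 Mb, each point a bin, with selected bins labelled by the Mb at which they begin. Bin 53 lies high for its 10 genes with 50 intervals, while bins 11, 12 and 13 lie low for theirs with 7, 15 and 0.

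The densest bin, 5 to 6 Mb, held 70 intervals over 27.2% of its length, and 46 of its 51 genes had a gene-end interval. Of the bins of other chromosomes, 0.624% held at least as many intervals. By total signal its leading genes were Frmd8 (300357), the kinase gene Map3k11 (240022), Cfl1 (193514), which encodes the actin-severing protein cofilin, and Brms1 (145302). The region counted for Frmd8 had its maximum outside that gene, 4141 bp from its nearest end and 28375 bp from its listed start. For Brms1 the maximum lay outside the interval counted for the gene. Map3k11 shared its called region with Pcnx3 and Sipa1, and Cfl1 shared its region with Mus81, a gene for a DNA repair nuclease, and Snx32. Ehbp1l1 (132233), AI837181 (122468), Cd248 (118102), a surface protein of stromal cells, and Ap5b1 (117331) followed. Among the genes without an interval were 1700020D05Rik, Gal3st3 and Ctsw, a protease gene of cytotoxic lymphocytes. So the bin mixed near-complete coverage of its genes with gaps at a few.

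The bin from 10 to 11 Mb was next, with 60 intervals and 26 of 32 genes. Its leading gene ends were those of fatty acid desaturases, Fads3 (total signal 183952, a region shared with Rab3il1) and Fads1 (121984), and of Prpf19 (174237), a splicing factor. Syt7, Ddb1, Dagla, Ccdc86 and Ms4a15 completed the first 8, at 100093, 84520, 83024, 76709 and 74824. Cd5 and Cd6, surface proteins of T cells, and Pga5, a pepsinogen, had no gene-end interval. Inside genes lay 29 of the 60 intervals, more than the 22 at gene ends.

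In the bin from 4 to 5 Mb, 56 intervals reached 46 of 49 genes. The cytokine gene Clcf1 shared a region of total signal 179071 with Pold4, a subunit of DNA polymerase delta. Carns1 (146488), Doc2g (143587), Dpp3 (130911), Cdk2ap2 (129719), Pcx (98552), the pyruvate carboxylase gene, and Grk2 (80639, shared with Kdm2a) came after it. For both Clcf1 and Carns1 the maximum lay outside the interval counted for the gene. That of the Clcf1 region lay 7 bp from the listed start of Pold4. Bbs1, Ctsf and Gstp2 were without a gene-end interval. Here 30 of the 56 intervals lay at gene ends, the largest number of any bin of the chromosome.

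The bin from 53 to 54 Mb stood out after its values had been seen, because it held 50 intervals and 10 genes. Only 5 of 1899 bins with 10 or fewer genes on other chromosomes reached 50. Just 3 of its intervals had their midpoint at a gene end, while 25 lay inside genes and 22 between them. The gap between Smndc1, a splicing factor gene, and Dusp5, a phosphatase gene of the ERK pathway, held 13, and the body of Rbm20 held 10. The division is by midpoint, so wide intervals that overlap a gene end can fall in the other classes. The interval over the Smndc1 start (53389295 to 53397276) is among the 13, and that over the Dusp5 start (53528086 to 53533349) was counted inside. Rbm20, which encodes a splicing regulator of striated muscle, was the gene of the bin without a gene-end interval. The other 9 genes had one, among them Mxi1 (total 149623, maximum 67), which encodes a partner of Max, Smndc1 (94853, 85), Dusp5 (92832, 56), Add3 (80783, 92) and the cohesin gene Smc3 (77240, 34). The maximum of the Smc3 region lay outside the interval counted for Smc3.

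The empty bins differed in gene content. The bin from 13 to 14 Mb held 33 genes, all olfactory receptors, such as Olfr1453, Olfr1454 and Olfr1457. That from 39 to 40 Mb held 10 genes, all Cyp2c, such as Cyp2c29, Cyp2c38 and Cyp2c39. The bins from 48 and from 50 Mb counted 1 gene each, Sorcs3 and Sorcs1, receptors of the sortilin family found mainly in neurons. The bins from 35, 49 and 51 Mb counted no protein-coding gene. The bin from 11 to 12 Mb, with 7 intervals and 32 genes, was mostly Ms4a, and Cblif, Gm8369 and Mrpl16 are the first of its genes without an interval by name. Yet that bin also held the highest maximum signal of the chromosome, at Osbp.

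Some of the longest stretches without an interval held the same families, and others held few or no genes. The longest ran for 4364 kb, from 47990440 to 52354186, and held Sorcs3, Sorcs1 and the insulin gene Ins1. The next, 1377 kb from 38990967 to 40367533, held 14 Cyp2c genes and Pdlim1. The third, 1328 kb from 12799638 to 14127584, held 41 olfactory receptor genes. It began right beyond the interval at Zfp91 and Lpxn, which had a maximum signal of 80. Further stretches held no whole gene (1276 kb), Pcsk5 (1234 kb) and Htr7 (1157 kb). A stretch of 959 kb held 6 Slc22a genes with Plaat5. Interval-free sequence thus included both gene-rich clusters and long stretches almost without genes.

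Intervals at gene ends had a higher median signal than those elsewhere on the chromosome. By midpoint, 313 intervals (34.5%) lay at gene ends, 383 (42.3%) inside genes and 210 (23.2%) between genes, beside 34.4%, 37.3% and 28.4% on other chromosomes. The median maximum signal, in the authors' unit, was 41 at gene ends (quartiles 29 and 51), 23 inside genes (17 and 33) and 22 between genes (16.5 and 30). Median total signal was 43968, 30228 and 27362 in the same order. A maximum of 60 or more was reached by 39 of 277 regions at gene ends, 7 of 261 inside genes and 5 of 159 between genes. On other chromosomes the median maxima were 37, 23 and 22.

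Adding listed start sites narrowed the strong class further. The promoter table had an entry for 593 of the 705 genes, with 729 start sites. On other chromosomes it had one for 16899 of 21182 genes. On chromosome 18, 0% of intervals lay at a listed start, beside 39.4% at gene ends. Starts of that chromosome may therefore be missing from the start-site and promoter shares given for other or all chromosomes. Of the 906 intervals, 252 (27.8%) lay within 1000 bp of a listed start, beside 29.6% on other chromosomes. These 252 had a median maximum of 42 (quartiles 34 and 52) and a median total of 45097. The 96 at other gene ends had a median maximum of 34 (quartiles 19 and 49), and the 348 left inside genes 22. Of the intervals first counted inside genes, 35 lay at a listed start. Distal intervals, over 10 kb from any gene end, numbered 298 (32.9%, beside 36.1% on other chromosomes). They had a median maximum of 22, and 2 of their 232 regions reached 60.

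**Figure D3:**
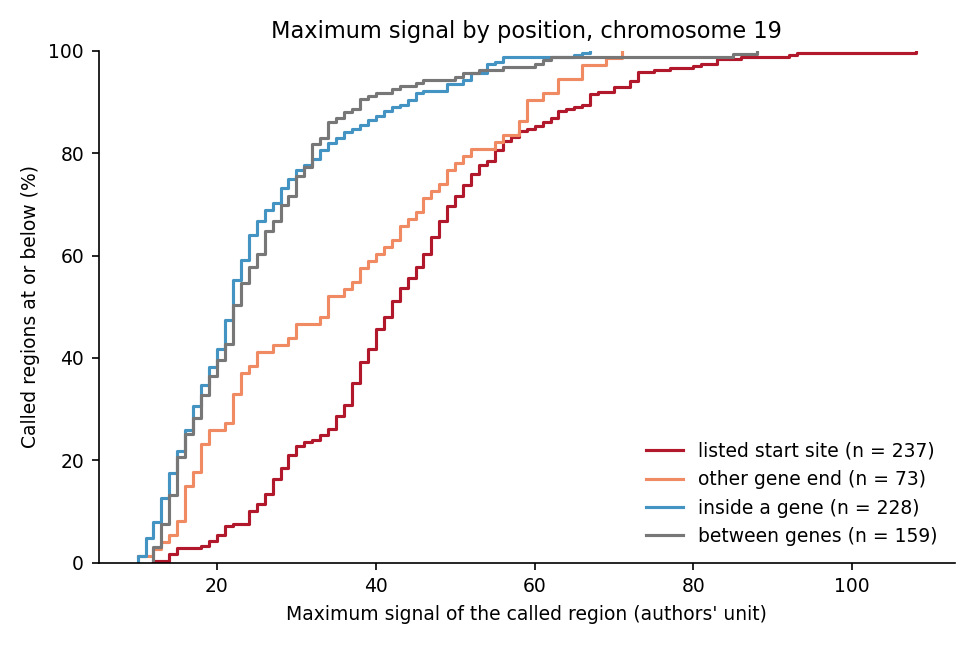
Cumulative share of called regions (vertical, %) at or below a given maximum signal (horizontal, authors' unit), by the position of the interval that holds the maximum. Regions at listed start sites lie to the right, with a median of 42, against 34 at other gene ends and 22 both inside and between genes.

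Start sites were covered more often than 3′ ends. Of the 593 genes, 342 (57.7%) had an interval within 1000 bp of a listed start, beside a background of 46.9%. An interval at the 3′ end was found for 144 (24.3%), against 13.1% on other chromosomes. Of these genes, 217 had only the start covered, 125 both, 19 only the 3′ end and 232 neither. In 15 genes a listed internal start had an interval and neither outer end did, among them Pax2, a paired-box developmental factor, Cnnm2, Prkg1 and Stx3. In crowded sequence single intervals served several genes: 115 of the 410 intervals over gene-end windows reached 2 or more genes, and 1 of 13210 bp (6056614 to 6069823) reached Mrpl49, Fau, Znhit2, Tm7sf2 and Vps51. No interval touched 231 genes (32.8%), beside 46.7% on other chromosomes.

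Promoters under an interval were rich in CG. Of the 729 listed promoters, 413 (56.7%) overlapped an interval by at least 1 bp, and these had a median of 23 CG dinucleotides (quartiles 15 and 29) in 300 bases. The 316 others had a median of 4 (quartiles 2 and 11). Among promoters with 20 or more CG, 252 of 291 (86.6%) were under an interval, and among those with 4 or fewer, 20 of 183 (10.9%). On other chromosomes the same shares were 77.2% and 6.13%. Read within each CG range, chromosome 19 promoters were thus still covered more often: 67.3% against 55.4% for 10 to 19 CG, and 34.4% against 21.8% for 5 to 9.

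**Figure D4:**
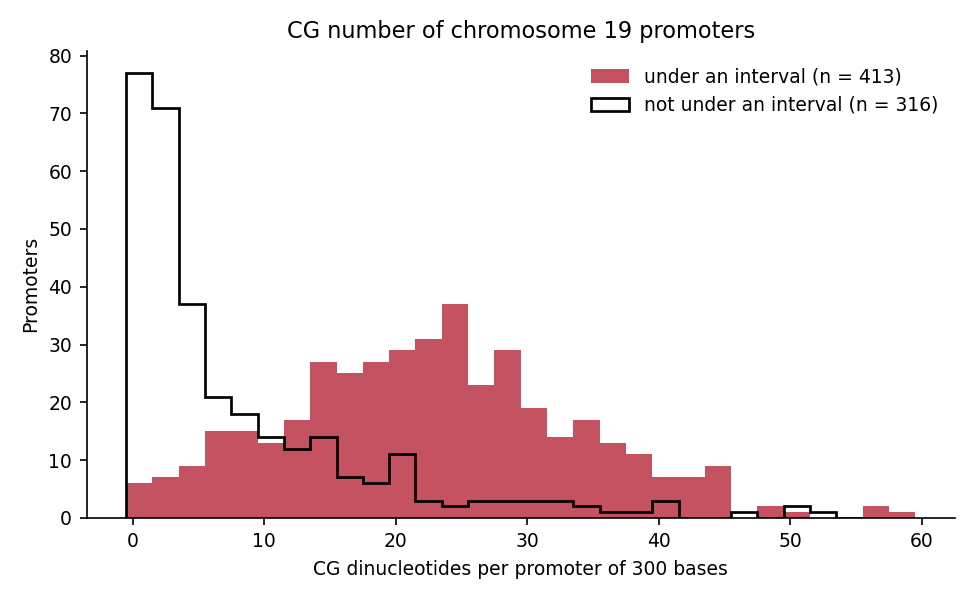
Number of CG dinucleotides per promoter of 300 bases (horizontal) and number of promoters (vertical) on chromosome 19, for 413 promoters under an interval (filled) and 316 not under one (outline). Medians are 23 and 4, and the outline has a tail above 20.

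Simple sequence motifs, searched on both strands, divided the promoters in the same way. The GC box GGGCGG was in 68.8% of chromosome 19 promoters under an interval and 24.7% of the others, beside 46.2% of all 21263 listed promoters. TATAAA, the TATA box, was in 7.02% and 19.6%, beside 12.6% of all. CCAAT showed little contrast, at 39.95% and 41.5%, beside 38.2% of all. The E-box CACGTG was in 8.96% and 3.48%, beside 7.84% of all, and the AP-1 motif TGACTCA, whose reverse complement is TGAGTCA, in 3.39% and 6.01%, beside 4.66%. A match describes letters in the window only. GGGCGG itself contains CG, so it is not separate from the CG number.

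CG-rich promoters without an interval were few and are named because both features were seen in the data. They numbered 39, at 36 genes, and 4 of these genes had another listed start under an interval. The rest included Sorcs1 with 50 CG, the serotonin receptor gene Htr7 with 46, the retinol carrier gene Rbp4 with 40, the neuronal intermediate filament gene Ina with 32 and Cyp26a1, a retinoic acid hydroxylase, with 26. Dock8 (52), Twnk (32), which encodes the mitochondrial helicase, and Mrpl43 (28), a mitochondrial ribosomal protein, were also in this set, so it was not made up of tissue-restricted genes alone. In the other direction, the only listed promoters of Ltbp3 and Anxa1, with 3 CG each, were under an interval. Start sites with 1 CG at Add3 and 2 CG at Tcirg1 and Pdcd4 were too, but each of these genes also had a covered start with 20 or more CG.

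Of the 10 highest maxima, 9 lay within 500 bp of a listed start site. Osbp, whose product carries sterols between membranes, led with 108 in the interval 11964133 to 11967617, the fourth highest maximum of all called regions. Tle4, a corepressor of the Groucho family, followed with 93 (14596687 to 14601125) and Add3, a protein of the membrane skeleton, with 92 (53140431 to 53145602). Esrra, an orphan nuclear receptor, had 86, Smndc1 85, the splicing factor Sf1 83, the iron-sulfur assembly factor Mms19 83 and the co-chaperone Stip1 81. The tenth, 80, was at Zfp91 and Lpxn. From the maximum to the nearest listed start these 9 regions measured 61 to 435 bp. The remaining region, with 88 at 9953681 to 9958908, lay 25946 bp from the ferritin gene Fth1, its nearest protein-coding gene, and 7030 bp from the non-coding gene Gm36913.

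Total signal ranked other loci first, because it sums over width. Behind Frmd8 came Ahnak (250513), a very large scaffold protein, then Pcnx3 with Map3k11, the start of Fkbp2 next to the growth factor gene Vegfb (214807), Macrod1 (195806), Rcor2 (193583), Mus81 with Cfl1, Fads3, Pold4 with Clcf1, and Malat1 (176421). The region credited to Frmd8 was also the widest interval of the chromosome, 19648 bp, and covered 12326 of the 20773 bp of Neat1, the non-coding RNA of nuclear paraspeckles. Another interval of 3113 bp lay just outside Neat1 at lower coordinates (5820854 to 5823966). The whole of Malat1, 6983 bp, lay under an interval of 12483 bp with a maximum of 60. Snhg1, a host gene of small nucleolar RNAs, had 2 intervals, with maxima of 50 and 15.

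All 10 transfer RNA genes listed on chromosome 19 lay under an interval, beside 175 of 398 (44.0%) on other chromosomes, a count made after the wide intervals had been seen. An interval of 10486 bp (12005183 to 12015668) covered 7 of them, n-TKctt29, n-TFgaa2, n-TKctt30, n-TLtaa4, n-TRtct1, n-TVtac1 and n-TVtac2, with total signal 163010 and maximum 56. An eighth, n-TFgaa6, lay under the interval just before it (12001438 to 12003464). This cluster sits between Osbp and the olfactory receptor gene Olfr1423, and the maximum lay 25006 bp from the listed start of Olfr1423, which had no interval. The other 2, n-TAagc9 and n-TSgct6, lay under the intervals 3573953 to 3577985 and 5037225 to 5042418, in the dense first stretch.

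Distal regions reached high maxima in a few places. Behind the region near Fth1 and those at Malat1 and the transfer RNA genes, which are distal to protein-coding genes but not to other genes, came a region inside Tcf7l2, a nuclear effector of Wnt signalling (55813963 to 55816852). It had a maximum of 54 and lay 73409 bp from a listed start. Among gene bodies, ranked after the counts were seen, Macrod1 and Sh3pxd2a held 12 intervals each, with midpoints inside the gene, Rbm20 10 and Nrxn2, Slit1 and Afap1l2 9 each. Macrod1 is 141 kb long and Sh3pxd2a, a scaffold of invadopodia, 204 kb, so their density per length differed, at 8.49 and 5.87 per 100 kb. The gene Flrt1 lies wholly within Macrod1, and the 7 intervals inside Flrt1 are among those of Macrod1.

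**Figure D5:**
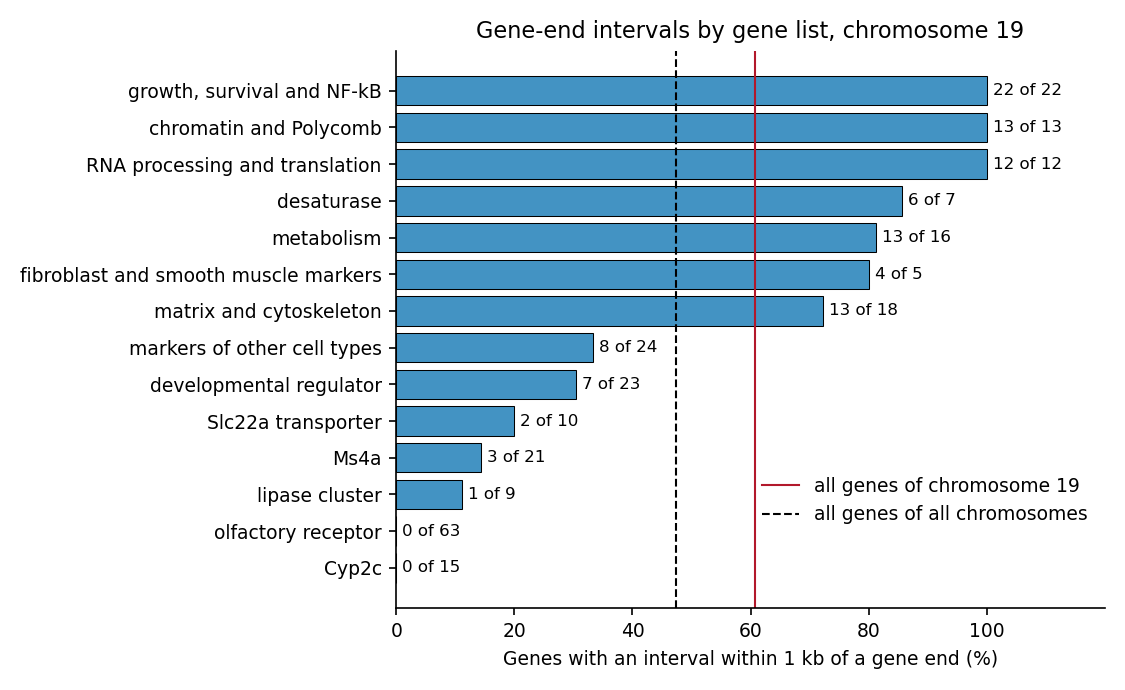
Genes with a gene-end interval (horizontal, % of the list) in 14 gene lists of chromosome 19 (vertical), with counts beside the bars. The solid line marks all genes of chromosome 19 (60.7%) and the dashed line all chromosomes (47.4%); 3 lists are complete and 2 are at 0.

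Gene lists, chosen with results of these data known, fell into covered and bare groups. Every member had a gene-end interval in the lists of chromatin and Polycomb genes (13 of 13), growth, survival and NF-kB genes (22 of 22) and RNA processing and translation genes (12 of 12). For the chromosome as a whole the share was 60.7%, and without tandem families 71.9%. For all genes between 3 and 11 Mb, where many members of these 3 lists lie, the share was 85.5%. Among chromatin genes the highest totals were at Ldb1 (110163), the deacetylase complex gene Mta2 (98932), Men1 (93229), which encodes menin, and Kat5 (84500), an acetyltransferase. The Polycomb genes Pcgf5 (51726) and Pcgf6 (29926) also had a gene-end interval. For Kat5 the maximum lay outside the interval counted for the gene.

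Growth and survival genes were led by Map3k11, then Bad (160026), a pro-apoptotic protein, Mxi1 and the Wnt co-receptor gene Lrp5 (122407). The NF-kB genes Rela (115737, maximum 37), Nfkb2 (97918, 54) and Chuk (28871, 42) were covered. RNA genes were led by Fau and Drap1 (140831 and 122468), both under intervals that reached other genes too, then Sf1 (106094) and Wdr74 (101752). For both Lrp5 and Wdr74 the maximum lay outside the interval counted for the gene. Median totals over the members with an interval were 76998 for growth genes, 77240 for chromatin genes and 61800.5 for RNA genes, beside 55561 over all 428 such genes of chromosome 19 and 39334.5 over all chromosomes.

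Metabolic and structural genes had shares above or near those of all genes, 60.7%, or 71.9% without tandem families. Of 16 metabolic genes 13 (81.2%) had a gene-end interval, led by Mrpl49 (140831), Fth1 (131674), the complex I gene Ndufs8 (116658) and Pcx. The lipid enzymes Acsl5 and Gpam had one at a listed internal start only, and Mrpl43 had none. Of 7 desaturase genes 6 (85.7%) had one, led by Fads3, Fads1, Scd2 (76173) and Fads2 (58695); Scd3 had none within 1000 bp. Of 18 matrix and cytoskeleton genes 13 had one (72.2%, about the share without tandem families), led by Ahnak, Vegfb, Cfl1 and the latent TGF-beta binding gene Ltbp3 (97996). The interval that ranks Vegfb lay outside that gene, with its maximum 207 bp from the listed start of Fkbp2. An interval over the Vegfb start had a total of 92441. Ablim1, Ankrd1 and Cnnm2 are the first without one by name, and Ablim1 and Cnnm2 had an interval at a listed start. Col17a1, a collagen of epithelial hemidesmosomes, and Pdlim1 were the other 2. For both Ndufs8 and Fads2 the maximum lay outside the interval counted for the gene.

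Markers were read beside the share of 60.7% for all genes of the chromosome. Of 5 fibroblast and smooth muscle markers 4 had a gene-end interval, which with 5 genes is not set apart from that share: Ltbp3 (maximum 33), Efemp2 (40), Loxl4 (28) and the smooth muscle actin gene Acta2 (20). Ankrd1 had none. Of 24 markers of other cell types 8 (33.3%) had one: Best1, Syt7, Chrm1, Rom1, Cyp17a1, Ankrd2, Scgb1a1 and Actn3. Total signal at these ran from 34049 at Actn3, a skeletal muscle actinin, to 131674 at Best1, a retinal channel gene that shares its called region with Fth1. The intervals counted for Actn3, Ankrd2 and Rom1 were also those counted for the neighbouring genes Zdhhc24, Hoga1 and B3gat3, in that order. The other 16 included the B cell gene Ms4a1, the liver genes Cyp2c29 and Cyp2c70 and the pancreatic lipase gene Pnlip. An interval at a gene's end does not measure its RNA.

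Of 23 developmental regulators 7 (30.4%) had a gene-end interval, beside 60.7% of all genes of the chromosome. They were Tbx10 (143587), Fgf8 (97702), Emx2 (79730), Gfra1 (59323), Pitx3 (51055), Hhex (43772) and Tlx1 (25431). The Tbx10 region is the one also counted for Doc2g. The interval counted for Fgf8 lay outside that gene and was also the one counted for Npm3 and Oga. The retinoic acid hydroxylase genes Cyp26a1 and Cyp26c1 and the Wnt inhibitor gene Dkk1 are the first without one by name, and the homeobox genes Lbx1, Nkx2-3 and Vax1 also had none. Maxima of the called regions counted for the 7 ran from 14 for Tlx1 to 59 for Tbx10. For both Tlx1 and Tbx10 the maximum lay outside the interval counted for the gene. Pax2 was not counted, although a listed start of it lay within 1000 bp of an interval.

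Tandem families were nearly bare. None of 63 olfactory receptor genes and none of 15 Cyp2c genes had an interval at an end or anywhere over the gene body. Of 21 Ms4a genes 3 had one, all at the edge of the cluster next to the dense stretch: Ms4a15 (74824, maximum 26), Ms4a10 (21719, 15) and Ms4a18 (18712, 12). The maximum of the Ms4a10 region lay outside the interval counted for Ms4a10. Of 10 Slc22a genes Slc22a12 (17717, 11) and Slc22a20 (15810, 12) had one, both apart from the main cluster. Of 9 lipase genes only Lipa did, with total signal 25792 and maximum 41 in the interval 34526135 to 34528052. Lipa encodes the lysosomal acid lipase that most cells use, whereas its neighbour Lipf encodes gastric lipase.

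Of 37 microRNA hairpins on the chromosome, 12 lay under an interval, looked at after the bins. Of 38 genes listed as microRNAs this was 31.6%, beside 14.03% (167 of 1190) on other chromosomes. The pair Mir194-2 and Mir192, microRNAs best known from liver and gut epithelium, shared the interval 6264058 to 6266579, with total signal 87834 and maximum 27. Their main mature products from the RefSeq table are shown with the seed, bases 2 to 8, in capitals, since the pair lies in the dense first stretch under a moderate interval.
mmu-miR-194-5p: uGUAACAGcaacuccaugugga
mmu-miR-192-5p: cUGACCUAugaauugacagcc
The seeds differ, so these neighbours are not of the same seed family. The RNA from the locus was not measured.

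Interval width and signal spanned a wide range. Width had a median of 2566 bp (quartiles 1910 and 3491, range 1 to 19648), beside 2450 bp elsewhere. Total signal per called region had a median of 34215 (quartiles 21982.5 and 56007), beside 28855.5, and maximum signal a median of 26 (quartiles 18 and 42), beside 27. The widest intervals after those at Neat1, Mrpl49 and Malat1 were at Drap1 and AI837181 (12367 bp) and over the transfer RNA cluster. The 5 narrowest measured 1 bp (inside Pola2), 19 bp (Gsto1), 75 bp (Tcf7l2), 90 bp (Sh3pxd2a) and 127 bp (Slit1), and none of them held its region of maximum. Being listed at all depends on total signal: the lowest totals here were 15327 near Ptgdr2, 15408 in Stx3, 15573 in Kank1, 15577 in Mxi1 and 15593 in Fbxw4, against 15316 for the lowest of the whole list. Regions below that were not analysed here.

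Part of the density came from called regions listed in several pieces. On chromosome 19, 117 called regions (15.4%) appeared as 2 or more intervals, beside 11% elsewhere, with 147 gaps of 302 to 9589 bp (median 1587). Their median total was 73207, against 30239.5 for regions in 1 piece. Of these split regions 71 had their maximum between 3 and 11 Mb, where 267 of the 759 regions lay. Intervals without their own region of maximum numbered 207 (22.8%), beside 18.1% elsewhere. Counted once per called region, the chromosome held 13.03 per Mb and its densest bin 47, still the bin from 5 to 6 Mb.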

How the data were processed

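ATAC-seq signal was taken from 1 list deposited by the authors for the Ezh2 -/- cells. The submitters' processing notes name Bowtie2 2.2.9, deepTools, SEACR and mm10, with neither order nor settings. Column 4, a score in the authors' own unit, was taken for the summed signal over a called region, its total. Column 5, a signal as deposited by the authors with no stated normalization, was read as its maximum (coverage height). Not given in the sources used here are the threshold, any control, the combining of replicates and the handling of duplicates and transposase offsets. Groups came from the genotype and treatment labels.

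Intervals were overlapped by at least 1 bp with protein-coding genes, start sites and promoters from RefSeq tables (GRCm38.p6) and counted in 1-Mb bins from position 0 by midpoint. Coordinates are 1-based. Members and lists were chosen with earlier results of these data known. Named genes are the first by total signal in each of the 3 densest bins and in each list, the first 3 by name without an interval, genes of empty and sparse bins, and genes at extreme regions; others are said in the text to be chosen after their values were seen, or fill out a list. A few genes within this rule are not reported here. All values are descriptions. Exact binomial intervals cover counting over genes only. Python 3.11.15, numpy 2.4.6, pandas 2.3.3, scipy 1.17.1 and matplotlib 3.10.9 were used. The lookup was tested on simulated data.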

Additional observations from a re-analysis of the deposited data

How the results depend on the processing

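No paired analysis was possible because the list has no value per replicate, and for the same reason no replicate could be left out. The share of intervals at gene ends, 34.5%, was 42.2% above the median total signal, 41.9% above the upper quartile, 39.6% with intervals that hold their maximum, 24.2% with a window of 500 bp, 45.5% with 2500 bp, 45.3% with any overlap and 38.4% with listed start sites. The share of genes, 60.7%, was 51.1% above the median total, 37.2% above the upper quartile and 71.9% without tandem families. The density of 15.6 per Mb was 10.1 above the median total and 6.59 in the upper quartile. Empty bins, 7 in all, were 11 above the median, 15 above the upper quartile and 4 with bins shifted by 0.5 Mb, and the densest bin held 46 intervals that hold their maximum. Stricter sets keep fewer intervals by construction. The settings with listed start sites and without tandem families were chosen after seeing the data. Within 2500 bp, 5 of the 14 lists gained 1 gene each: desaturases (7 of 7), developmental regulators (8 of 23), matrix and cytoskeleton (14 of 18), metabolism (14 of 16) and markers of other cell types (9 of 24). With any overlap of the gene body, matrix and cytoskeleton genes reached 16 of 18 and metabolic genes 15 of 16. Read depth and replicate error are unknown, so the absence of an interval shows only that no signal passed the authors' threshold.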

Other observations

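Other kinds of gene were covered to different extents on chromosome 19. An interval overlapped 113 of 339 long non-coding RNA genes (33.3%, beside 22.7% on other chromosomes) and 7 of 220 pseudogenes (3.18%, beside 1.56%). It overlapped 4 of 27 small nucleolar RNA genes (14.8%, beside 8.45%) and 0 of 21 small nuclear RNA genes, beside 5.19% elsewhere. Of the 210 intervals between protein-coding genes, 37 (17.6%) lay at an end of a gene of another kind, beside 11.7% on other chromosomes. These counts were made after the main values had been seen.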
